A study of Mus musculus with 10 samples.

Results

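A group of 9 genes known as targets of the let-7 microRNA family is described here: Tgfbr1, Nras, Igdcc3, Cdc34, Trim71, Plagl2, Arid3b, E2f5 and Nr6a1. They were taken by gene symbol from the deposited gene tables, where each of the 9 had 1 row among 17919 genes, and their levels were set beside the let-7 counts of the matching small RNA libraries. The cells were neural stem cells of the ventral midbrain, from embryos of the ICR mouse strain at embryonic day 10. One culture received a lentivirus that expresses Lin28a and the other a mock control lentivirus, and both were expanded with a passage every 4 days. RNA-seq and small RNA libraries covered the Lin28a culture and the control culture at passage 3 (P3) and at passage 1 (P1), and polysome-seq, the sequencing of RNA from sucrose gradient fractions, covered both cultures at P3. The sources used here do not give the promoter that drove Lin28a, how many embryos were pooled or which gradient fractions were sequenced. There was 1 library for each of the 10 groups, so the differences could not be checked in replicates or tested, and every comparison describes these libraries.

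The let-7 microRNAs are short RNAs that pair through their seed, the bases near their 5′ end, with sites in messenger RNAs and so lower the stability and translation of those messengers. Their amounts increase as embryonic cells differentiate. Lin28a, an RNA-binding protein of embryonic cells, holds back let-7 maturation by binding the loop of the let-7 precursor hairpin, where GGAG is a letter run it is known to contact. Lin28a can also bind messenger RNAs directly. The genes described here act in growth factor signalling (Tgfbr1, Nras), at the cell surface (Igdcc3), in ubiquitin transfer (Cdc34, Trim71) and in transcription (Plagl2, Arid3b, E2f5, Nr6a1).

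The guide strands, the arms of the hairpins that act on targets, are shown because all 9 share 1 seed and so are expected to read the same sites. Sequences are from RefSeq (GRCm38.p6), 5′ to 3′, with the seed (bases 2 to 8) in capitals. Of 1679 mature names in that table, 11 carry this seed.
let-7a: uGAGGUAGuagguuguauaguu
let-7b: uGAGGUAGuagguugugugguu
let-7c: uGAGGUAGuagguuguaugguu
let-7d: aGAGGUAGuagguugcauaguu
let-7e: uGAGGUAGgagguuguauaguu
let-7f: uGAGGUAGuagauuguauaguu
let-7g: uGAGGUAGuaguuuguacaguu
let-7i: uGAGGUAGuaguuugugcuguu
miR-98: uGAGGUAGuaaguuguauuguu

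The precursor hairpins differ more than the guides do. The letters GGAG were searched on the hairpin's own strand, in the loop between the annotated arms, and overlap no other motif searched. They were found in 8 of 11 let-7 and miR-98 hairpins with both arms in the table (72.7%), against 52 of 644 mouse hairpins (8.07%) and 19 of 77 hairpins whose loop was at least as long as the shortest let-7 loop (24.7%). The hairpins without it were those of let-7b, let-7c-2 and miR-98. A hairpin with the letters in capitals (Mirlet7i, chr10:122985640-122985724, minus strand), the pair that both yield let-7c (Mirlet7c-1, chr16:77599657-77599750, and Mirlet7c-2, chr15:85706603-85706697, both plus strand) and the miR-98 hairpin (Mir98, chrX:151913214-151913321, plus strand) are shown, since let-7c and miR-98 lay at opposite ends of the guide ratios given next.
Mirlet7i: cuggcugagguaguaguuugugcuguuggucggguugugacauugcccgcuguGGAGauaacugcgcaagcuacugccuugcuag
Mirlet7c-1: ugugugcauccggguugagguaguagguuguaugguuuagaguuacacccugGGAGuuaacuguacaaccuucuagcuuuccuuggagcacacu
Mirlet7c-2: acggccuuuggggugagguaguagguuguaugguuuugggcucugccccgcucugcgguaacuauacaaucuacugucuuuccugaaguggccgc
Mir98: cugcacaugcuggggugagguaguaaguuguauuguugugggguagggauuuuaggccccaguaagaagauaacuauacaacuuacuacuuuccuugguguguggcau

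The let-7 guides were far lower with Lin28a at P3 and slightly lower at P1. Counts are scaled to all microRNA counts of the library (CPM). The P3 libraries held 8542827 counts in Lin28a and 8288085 in control, and the P1 libraries 8288819 and 6322534 in the same order. The 9 guides summed to 29657 CPM in Lin28a and 125388 in control at P3, and 45113 in Lin28a and 55228 in control at P1. The control culture at P3 thus stood above the other 3 libraries. The Lin28a to control ratio of the sum was 0.237 at P3 (95% exact binomial interval 0.235 to 0.238) and 0.817 at P1 (0.813 to 0.821). At P3 the sum, relative to P1, was 0.657 times as high in the Lin28a culture (0.654 to 0.661) and 2.27 times as high in the control culture (2.26 to 2.28). Of the 9 guides, 7 were more than 2-fold lower at P3 in the Lin28a culture (17.7% of 424 microRNAs were), with let-7b and let-7c higher at ratios of 1.86 and 1.22, while all 9 were higher in the control culture, 6 of them more than 2-fold (27.1% of 428 were) and let-7b the most at 7.70. These intervals cover counting error only. They are too narrow for let-7a, let-7c and let-7f and for the sums that hold them. The mature counts of these guides were 1.92 to 2.00 times their hairpin counts, as when a read is counted at each of several loci. Such counting also gives these guides more weight in the sums and in the let-7 share of microRNA counts.

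Single guides differed in how low they were. At P3, 8 of 9 guides were more than 2-fold lower with Lin28a (12.1% of 414 microRNAs were), with ratios between 0.0970 for miR-98 and 0.249 for let-7e, while let-7c was the exception at 0.509 (0.506 to 0.512). Let-7i, with 2324 CPM in P3 Lin28a against 22426 in P3 control, had a ratio of 0.104, and let-7f, with 3133 against 26867 CPM, had 0.117. At P1, 7 of 9 guides were lower with Lin28a (37.4% of 414 microRNAs were lower by any amount) and none more than 2-fold (4.35% were more than 2-fold lower). Let-7b was the lowest there at a ratio of 0.550, while let-7c and let-7e were slightly higher at 1.09 and 1.06. Let-7c held 18518 of the 29657 CPM in P3 Lin28a, a share that is raised if its reads were counted at several loci. Without let-7c the sum's ratio was 0.125 at P3 and 0.725 at P1, an alternative chosen after seeing the data. The P3 ratios of guides with and without GGAG in the hairpin overlapped. Those of miR-98 and let-7b, without it, were 0.0970 and 0.133, and those of let-7i and let-7e, with it, were 0.104 and 0.249. Whether GGAG bears on these ratios was not tested.

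The opposite arm separates part of the let-7c signal by hairpin. The let-7c-1 passenger strand had 132 counts in P3 Lin28a against 894 in P3 control, a CPM ratio of 0.143 (0.118 to 0.172). Its hairpin has GGAG in the loop. The let-7c-2 passenger strand, from a hairpin without GGAG, has the same sequence as that of let-7a-1, from a hairpin with it. The pair therefore cannot be told apart. Their shared counts were 430 in P3 Lin28a against 769 in P3 control, a ratio of 0.542 (0.481 to 0.611).

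MicroRNAs made from the same clusters had a sum that differed in the same direction as the let-7 sum in 2 of the 4 comparisons and in the opposite direction in the other two. The guides of miR-125a, miR-125b, miR-99a, miR-99b and miR-100, which have other seeds, were all higher in CPM with Lin28a at P3. Their ratios lay between 1.09 and 1.63, with a summed ratio of 1.25. The let-7 guides held 2.97% of microRNA counts in P3 Lin28a and 12.5% in P3 control, which by itself raises the CPM of other microRNAs in Lin28a. So the ratios of miR-125a (1.09) and miR-99b (1.10) may not mean a difference, and scaling without let-7 was not applied to the partners. All 5 were lower at P1 (37.4% of 414 microRNAs were lower by any amount), with a summed ratio of 0.746. The P1 ratio of miR-125a was 0.988 (0.975 to 1.00), so its direction there is uncertain. None of the 5 differed 2-fold at either passage (4.35% of microRNAs were more than 2-fold lower at P1 and 12.1% at P3). With passage their sum was lower at P3 in both cultures, at ratios of 0.786 in the Lin28a culture, where the let-7 sum was also lower, and 0.471 in the control culture, where it was higher.

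**Figure D1:**
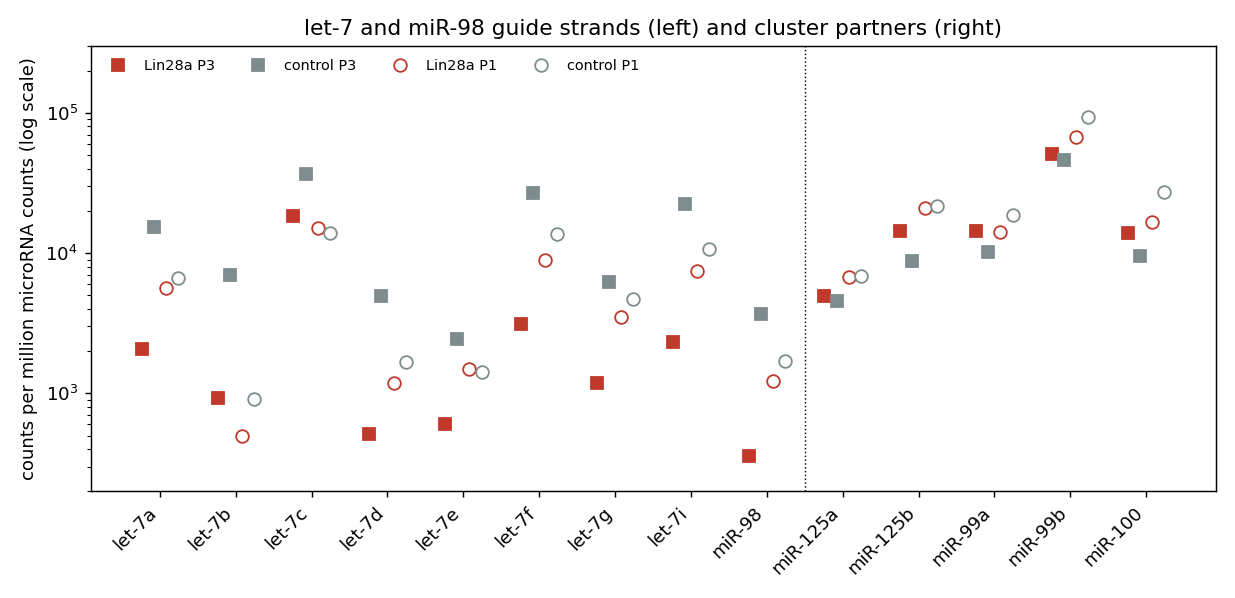
Guide strand counts scaled to CPM (log axis) in 4 small RNA libraries, filled squares for P3 and open circles for P1, red for Lin28a and grey for control. At P3 every let-7 guide was lower in Lin28a, with sums of 29657 against 125388 CPM, while the cluster partners right of the dotted line were slightly higher in CPM.

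In the gene libraries, Lin28a itself followed the labels, with 104 FPKM in Lin28a and 0.0620 in control at P3, and 478 in Lin28a and 0.128 in control at P1. FPKM and RPKM are fragments or reads scaled to gene length and library size. Between 12338 and 12461 genes reached 1 FPKM in the RNA-seq libraries, and 12098 and 12028 genes reached 1 RPKM in the polysome libraries of Lin28a and control. Total depth is unknown, and from the steps between low values the Lin28a libraries were 1.01 times as deep as control at P3, 1.15 times at P1 and 1.04 times in polysome-seq. All 12 neural stem and progenitor markers were at 1 or more in every library, as the cell label has it. Markers of other cell types differed between the libraries. The summed level of 14 neuron markers was 501 FPKM in Lin28a and 286 in control at P3, and 1012 in Lin28a and 1194 in control at P1, that of 10 astrocyte markers 2457, 5134, 470 and 560, and that of 12 oligodendrocyte markers 1291, 2107, 112 and 186, in the same order. At P3, 13 of 13 neuron markers that passed the level filter were higher and all 10 astrocyte markers lower with Lin28a (48.5% of 12716 genes were higher). Some neuron markers, such as Nhlh2 (5.02 FPKM in Lin28a against 0.288 in control), passed through their Lin28a library alone. Their direction is fixed by the filter. Of the microglia and blood markers, 0 of 8 reached 1 in any library. The part of cell makeup in the results below was not tested, and in bulk RNA fewer cells of a type and less RNA per cell cannot be told apart.

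In RNA at P3 all 9 genes were higher with Lin28a by some amount, and 3 of them (Tgfbr1, Plagl2 and Igdcc3) more than 2-fold. Of 12716 genes compared, 48.5% were higher by any amount, 1.31% more than 2-fold higher and 1.34% more than 2-fold lower. Ratios are log2 of Lin28a over control after 1 was added to each value, which understates the differences of low genes, and a gene had to reach 1 in at least 1 of the libraries compared. Nr6a1 and Trim71 did not reach 1 in RNA, so they are not among the genes compared there, which leaves 7 of 9. All 7 were higher at P3. Of these, Arid3b entered at P3 through its Lin28a library alone, so its direction there is fixed by the filter. The median over the 9 genes was 0.69, beside -0.01 over all genes compared. At P1 all 9 were again higher by some amount, among them the 7 compared (48.4% of 12564 genes were). None was more than 2-fold higher (0.135% were higher and 0.0955% lower past it), with a median of 0.41 beside -0.01. In polysome RNA at P3, 8 of 9 were higher and Trim71 lower (62.8% of 12289 genes were higher), and Plagl2 and Igdcc3 were more than 2-fold higher (0.952% were, and 0.122% were more than 2-fold lower). Of the 8, Nr6a1 entered through its Lin28a library alone, so its direction is fixed by the filter, and Nras turned to -0.02 under upper quartile scaling. The median was 0.47 beside 0.06. The genes were known as let-7 targets and were chosen with earlier results of these libraries known, so their common direction is a description.

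**Figure D2:**
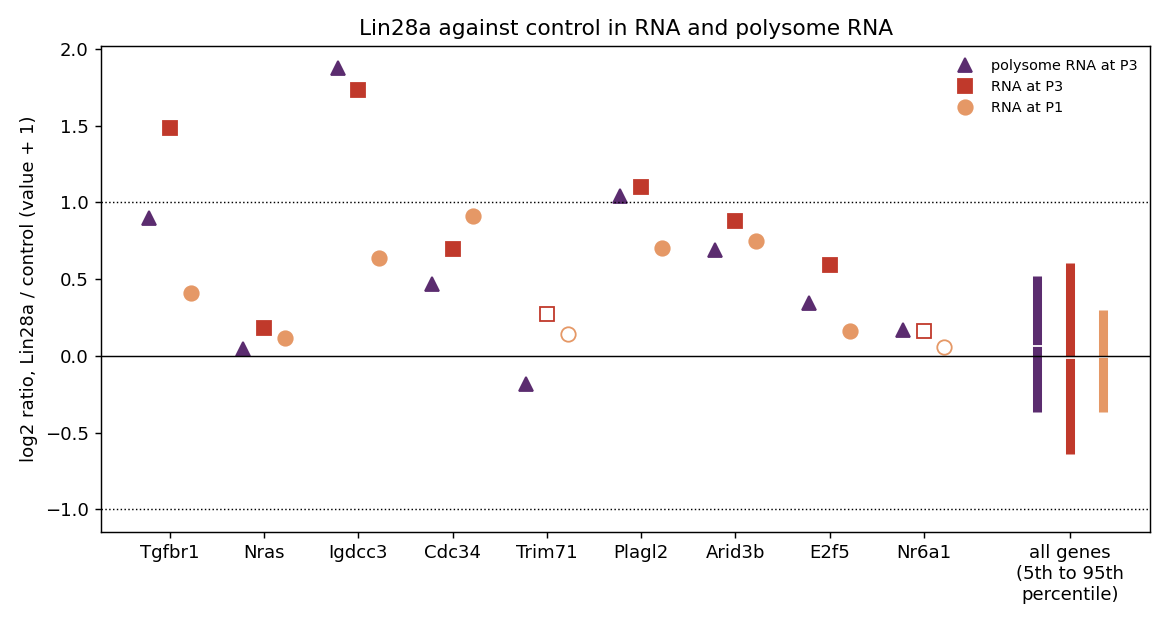
Log2 ratios of Lin28a to control (1 added to each value) for the 9 genes in polysome RNA at P3, RNA at P3 and RNA at P1, with open symbols for genes under 1 in both libraries and dotted lines at 2-fold. The bars at the right span the 5th to 95th percentile of all genes compared, with the median as a white tick, and Igdcc3, at 1.87, 1.73 and 0.64, lies above them in all 3 comparisons.

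Tgfbr1 (NM_009370) encodes the type I receptor for TGF-beta, the kinase that phosphorylates Smad proteins once the type II receptor has bound the ligand. It had 35.8 FPKM in Lin28a and 12.2 in control at P3, and 44.7 in Lin28a and 33.4 in control at P1, and 25.2 RPKM in Lin28a polysomes against 13.1 in control polysomes. The P3 control value was the low one, and the other 3 RNA libraries lay within 33.4 to 44.7 FPKM. Its log2 ratio of Lin28a to control was 1.48 at P3, above 99.7% of genes compared, but 0.41 at P1 (above 98.0%) and 0.90 in polysomes. The long non-coding gene Gm32435 overlaps Tgfbr1 in the reference annotation, and how the counting used strand is not known here.

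Across the TGF-beta pathway differences went both ways at P3. Of 26 listed ligands, receptors, Smad proteins and regulators, 22 were compared at P3, with 13 higher and 9 lower by any amount (48.5% of all genes were higher). The pathway had a median of 0.10, with none more than 2-fold higher (1.31% of all genes were) and 1 more than 2-fold lower (1.34% were). Its largest ratios were those of Ltbp3, a latent TGF-beta binding protein (-1.16, with 18.7 against 43.1 FPKM), and of the activin receptors Acvr2b (0.91, with 5.16 against 2.29 FPKM) and Acvr2a (0.73, with 13.9 against 7.99 FPKM). For both activin receptors P3 control was the lowest of the 4 RNA libraries, as it was for Tgfbr1. At P1 the median was 0.01 with none past 2-fold. In polysomes 20 of 22 were higher by any amount (62.8% of all genes were), with a median of 0.21. More than 2-fold higher were 2 (0.952% of all genes were), among them Acvr2b (1.06).

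Nras (NM_010937), a small GTPase that relays growth factor signals to the MAP kinases, hardly differed between the cultures. It had 63.6 FPKM in Lin28a and 56.0 in control at P3, and 46.6 in Lin28a and 43.0 in control at P1, and 77.9 against 75.4 RPKM in polysomes. The log2 ratios were 0.18, 0.11 and 0.05 in RNA at P3, RNA at P1 and polysomes, above 72.0%, 75.4% and 46.5% of genes compared. Reads from a pseudogene copy, Nras-ps2, could be counted with it, so its level is uncertain to that extent. Hras1, a GTPase of the same family, had 12.8 FPKM in Lin28a and 16.4 in control at P3, and 19.9 in Lin28a and 20.2 in control at P1.

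Among 26 genes of the Ras and MAP kinase pathway, 12 were higher and 14 lower at P3 (48.5% of all genes were higher). Their median was -0.02 and 1 was past 2-fold (1.31% of all genes were higher and 1.34% lower past it). That gene was Dusp4, a phosphatase of MAP kinases (1.12, with 3.56 FPKM in P3 Lin28a against 1.10 in P3 control). The transcription factor Etv4 (-0.98) and the GTPase Mras (-0.52) followed in size. At P1, 8 were higher and 18 lower (48.4% of all genes were higher) with none past 2-fold (median -0.08). In polysomes 14 were higher and 12 lower (62.8% of all genes were higher) with none past 2-fold (median 0.01).

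Igdcc3 (NM_008988), a surface protein of the immunoglobulin superfamily related to the netrin receptor Dcc, had the largest P3 log2 ratio of the 9 with 1 added, while the plain fold of Arid3b was as large. It had 16.1 FPKM in Lin28a and 4.17 in control at P3, and 29.7 in Lin28a and 18.7 in control at P1, and 20.7 RPKM in Lin28a polysomes against 4.93 in control polysomes. The plain fold was 3.87 in RNA at P3 and 4.21 in polysomes, and the log2 ratios of 1.73 and 1.87 were above 99.9% of genes compared in both. At P1 the fold was 1.59 and the log2 ratio 0.64, above 99.5%.

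Members of the same protein family differed among themselves. Dcc, which is also expressed by neurons, had a P3 log2 ratio of 1.06 (11.4 FPKM in P3 Lin28a against 4.93 in P3 control) but -0.15 at P1, where it had 25.1 against 27.9 FPKM. Igdcc4 and Prtg were at 0.42 and 0.37 at P3, and Neo1 at -0.03, with 27.4 against 28.0 FPKM. Of these 4, Dcc alone was past 2-fold in RNA at P3 (1.31% of all genes were more than 2-fold higher).

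Cdc34 (NM_177613), the ubiquitin-conjugating enzyme that works with SCF ubiquitin ligases to mark cell cycle inhibitors for degradation, had the largest P1 log2 ratio of the 9 with 1 added, while the plain fold of Arid3b was slightly larger. It had 64.1 FPKM in Lin28a and 39.2 in control at P3, and 72.3 in Lin28a and 38.1 in control at P1, and 53.9 against 38.7 RPKM in polysomes. Both Lin28a libraries lay above both control libraries, and within each culture the passages were close. The log2 ratio was 0.69 at P3 (1.63-fold, above 96.5% of genes), 0.91 at P1 (1.90-fold, above 99.8%) and 0.47 in polysomes (above 93.8%), never past 2-fold. A pseudogene copy, Cdc34b, could take or add reads, so the level is uncertain to that extent.

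Its closest paralog did not share the difference. Ube2r2 had 57.0 FPKM in Lin28a and 55.1 in control at P3, and 58.0 in Lin28a and 54.9 in control at P1, with log2 ratios of 0.05 and 0.08. Among 16 genes of the SCF ligases and their substrates, 11 were higher and 5 lower at P3 (48.5% of all genes were higher). Their median was 0.16 and 1 was past 2-fold (1.31% of all genes were higher and 1.34% lower past it). Ccnf, an F-box protein, was that gene at 1.03 (26.5 against 12.5 FPKM), followed by the small subunit Cks1b at 0.87 and the substrate Nfkbia at -0.76. At P1, 10 were higher and 6 lower (48.4% of all genes were higher) and none past 2-fold (median 0.11). In polysomes 12 were higher and 4 lower (62.8% of all genes were higher) with none past 2-fold (median 0.10).

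Trim71 (NM_001042503), the homolog of worm lin-41 and an RNA-binding protein of the TRIM-NHL family, was close to absent from RNA. It had 0.423 FPKM in Lin28a and 0.179 in control at P3, and 0.391 in Lin28a and 0.260 in control at P1. Both Lin28a libraries were above both controls, at levels too low for the comparison. In polysomes it had 2.43 RPKM with Lin28a against 2.90 in control, the other direction, with a log2 ratio of -0.19. The family members Trim2, Trim3 and Trim32 were at 0.18, -0.09 and 0.03 in RNA at P3, with levels between 12.2 and 25.2 FPKM in P3 Lin28a.

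Plagl2 (NM_018807), a zinc finger transcription factor of the PLAG family, was past 2-fold in both assays at P3. It had 11.5 FPKM in Lin28a and 4.82 in control at P3, and 21.3 in Lin28a and 12.7 in control at P1, and 25.8 against 12.0 RPKM in polysomes. Lin28a was above control in each pair, and P3 below P1 in each culture. The log2 ratios were 1.10 at P3, 0.70 at P1 and 1.04 in polysomes, above 99.1%, 99.7% and 99.1% of genes. In polysomes the ratio was 0.98 when libraries were scaled to their upper quartile, which ends its place past 2-fold. Of its paralogs, Plagl1, a growth regulator, had a ratio of 0.85 at P3 (16.4 against 8.65 FPKM) and 0.47 at P1, and Plag1 was under 1 FPKM in all 4 RNA libraries.

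Arid3b (NM_019689), a DNA-binding protein of the AT-rich interaction domain family, was low throughout. It had 1.58 FPKM in Lin28a and 0.406 in control at P3, and 4.99 in Lin28a and 2.56 in control at P1, and 2.55 against 1.20 RPKM in polysomes. The plain fold at P3 was 3.90, similar to that of Igdcc3, but the added 1 brings the log2 ratio to 0.88, which was above 98.1% of genes. With 0.1 added in place of 1 it was 1.73 and past 2-fold, as it was in polysomes at 1.02. At P1 the log2 ratio was 0.75 and the fold 1.95. It entered the P3 comparison through its Lin28a library alone, so its direction there is fixed by the filter. The paralog Arid3a was at 0.32 at P3, with 0.983 against 0.589 FPKM, and at -0.00 at P1, and Arid3c was under 1 in every library.

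E2f5 (NM_007892), an E2F protein that works with the pocket proteins to repress cell cycle genes, differed less. It had 48.2 FPKM in Lin28a and 31.6 in control at P3, and 46.7 in Lin28a and 41.7 in control at P1, and 32.1 against 25.1 RPKM in polysomes. As with Tgfbr1, P3 control was the low library. The log2 ratios were 0.59 at P3 (above 94.8% of genes), 0.16 at P1 (above 83.0%) and 0.34 in polysomes (above 88.7%). The gene Rbis overlaps it in the reference annotation, so some reads may belong to either. Of 16 other genes of the E2F and pocket protein family, 12 were higher and 4 lower at P3 (48.5% of all genes were higher). None was past 2-fold (median 0.17), and E2f6 at 0.51, Tfdp2 at 0.50 and E2f8 at 0.48 led. At P1, 14 of 16 were higher by any amount (48.4% of all genes were) with a median of 0.18. In polysomes 12 were higher and 4 lower (62.8% of all genes were higher), with a median of 0.10. None was past 2-fold at P1 or in polysomes.

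Nr6a1 (NM_010264), also called GCNF, is an orphan nuclear receptor that represses pluripotency genes. It stayed under 1 FPKM, with 0.498 in Lin28a and 0.342 in control at P3, and 0.885 in Lin28a and 0.808 in control at P1, and 1.20 against 0.958 RPKM in polysomes. The differences were small in the same direction in each pair, with log2 ratios of 0.16, 0.06 and 0.17. In polysomes it reached 1 RPKM in the Lin28a library alone, so its direction there is fixed by the filter. An antisense gene, Nr6a1os, and the microRNA genes Mir181a-2 and Mir181b-2 lie over it. Of the nuclear receptors set beside it, Nr2f1, a regional factor of the brain, was at -0.59 at P3 and -0.51 at P1, while Nr2c1 (0.17), Nr2c2 (0.35) and Nr2f2 (-0.04) were small at P3.

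**Figure D3:**
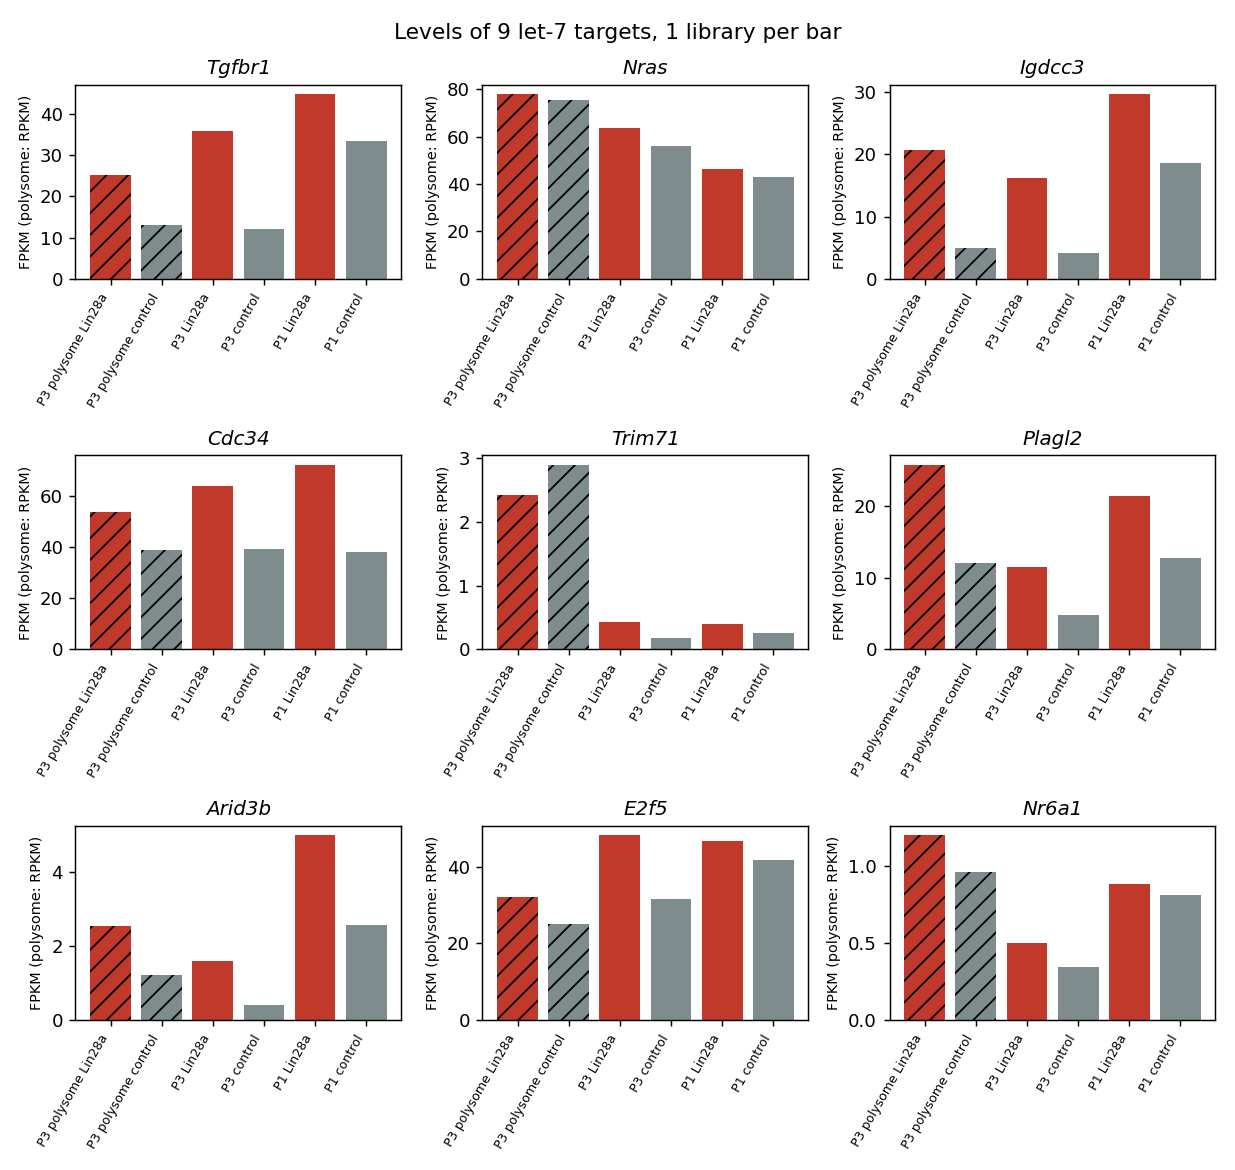
Levels of the 9 genes, 1 library per bar with axes from 0, with RPKM in the hatched polysome bars and FPKM in the plain RNA bars, red for Lin28a and grey for control. For Tgfbr1 the P3 control bar stands alone as low (12.2 FPKM), for Cdc34 both Lin28a bars stand above both controls, and Trim71 is above 1 in polysomes only.

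With passage, 7 of the 9 genes were lower at P3 than at P1 in the control culture. Trim71 and Nr6a1 were under 1 FPKM in both libraries. Of the 7 genes that passed the filter, 5 were lower (50.3% of 13011 genes were lower by any amount). More than 2-fold lower were 4, Igdcc3, Tgfbr1, Arid3b and Plagl2 (8.14% were), while none was more than 2-fold higher (11.5% were). Their log2 ratios of P3 to P1 in control were -1.93, -1.39, -1.34 and -1.24. Arid3b entered this comparison through its P1 library alone, so its direction there is fixed by the filter. In the Lin28a culture 6 were lower, and 5 of the 7 that passed the filter (51% of 12850 genes were). Arid3b alone, at -1.21, was more than 2-fold lower (4.8% were lower and 8.38% higher past it). The medians over the 9 were -0.31 in the Lin28a culture and -0.43 in the control culture, beside -0.01 and -0.00 over all genes.

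The genes differed in how far the 2 cultures parted with passage. Tgfbr1 had a log2 ratio of -0.31 in the Lin28a culture against -1.39 in control, and Igdcc3 -0.84 against -1.93. Plagl2 stood at -0.84 against -1.24 and Arid3b at -1.21 against -1.34, and with 0.1 added in place of 1 Arid3b stood at -1.60 against -2.40, so its gap between the cultures depends on the added value. These 4 genes and Nr6a1 were lower at P3 in both cultures. Nras went the other way in both, with 0.44 in the Lin28a culture and 0.37 in control. Cdc34 (-0.17 and 0.04), Trim71 (0.03 and -0.10) and E2f5 (0.05 and -0.39) lay near 0 or parted in sign, and Nr6a1 was at -0.33 and -0.43. Over the same step the let-7 sum was lower in the Lin28a culture and higher in control, while neuron marker sums were lower in both cultures, astrocyte and oligodendrocyte sums higher. For each of the 9 genes the passage ratio in control and the Lin28a ratio at P3 both rest on the P3 control library and are not separate evidence.

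**Figure D4:**
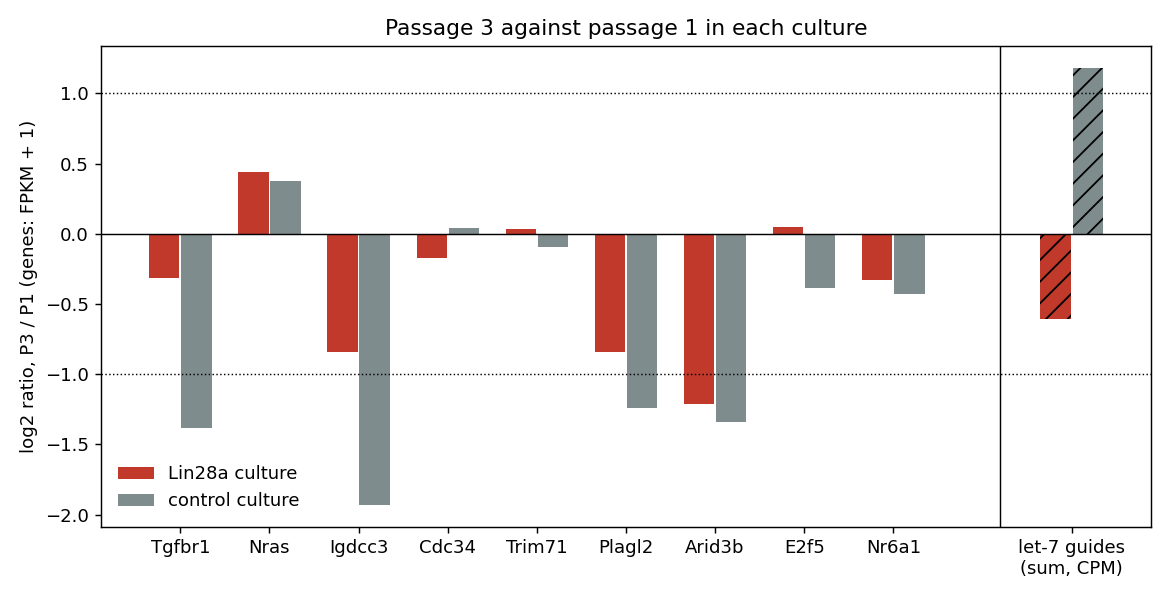
Log2 ratio of P3 to P1 for the 9 genes (1 added to each FPKM) and, right of the line, for the summed let-7 guides in CPM, red for the Lin28a culture and grey for the control culture, with dotted lines at 2-fold. The let-7 sum had ratios of 0.657 in the Lin28a culture and 2.27 in control, while Tgfbr1, Igdcc3, Plagl2, Arid3b and Nr6a1 were lower at P3 in both cultures.

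The polysome to RNA ratio was compared for genes at 5 or more in all 4 P3 libraries, which 4 of the 9 genes met. Tgfbr1 had the lowest value, with a Lin28a minus control difference of -0.58 on the log2 scale, at percentile 1.60 of 7817 genes. E2f5 (-0.25), Cdc34 (-0.23) and Nras (-0.13) were also negative (39.3% of genes were below 0), and none was past 2-fold (0.0512% were lower and 0.358% higher past it), while the median of all genes was 0.07. Of the genes under 5 in some library, Trim71 was at -0.46, Arid3b at -0.19, Plagl2 at -0.06, Nr6a1 at 0.01 and Igdcc3 at 0.14. Read as levels, Tgfbr1 in Lin28a had 25.2 RPKM in polysomes and 35.8 FPKM in RNA, and in control 13.1 RPKM and 12.2 FPKM. Whether polysome-seq and RNA-seq drew on the same cells is not in the labels, and the neuron, astrocyte and oligodendrocyte sums in polysomes were 303, 277 and 201 RPKM in Lin28a against 253, 350 and 294 in control, closer together than in RNA. Marker by marker, 13 of 14 neuron markers were higher in polysomes (62.8% of all genes were), 6 more than 2-fold (0.952% were), some of them present in Lin28a alone at 1 or more. Their median log2 ratio was 0.82, against 1.21 in RNA at P3. Of the astrocyte markers 8 of 9 were lower in polysomes, and of the oligodendrocyte markers 6 of 8, while 62.8% of all genes were higher. An oligodendrocyte marker, at 0.642 RPKM in Lin28a against 1.66 in control, passed through its control library alone. Its direction is fixed by the filter.

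Per length, the 9 genes spanned a wide range of levels. In P3 Lin28a the order by FPKM was Cdc34, Nras, E2f5, Tgfbr1, Igdcc3, Plagl2, Arid3b, Nr6a1 and Trim71, with 64.1 for the first and 0.423 for the last. In P3 control Nras was first at 56.0, ahead of Cdc34 at 39.2, and Plagl2 at 4.82 and Igdcc3 at 4.17 were neighbours. With 1 library per group, whether neighbours in these orders differ beyond their spread cannot be said. Over the 4 RNA libraries log2 levels, taken after 1 was added, which narrows the span of low genes, spanned 2.57 for Igdcc3, 2.09 for Arid3b, 1.94 for Plagl2 and 1.80 for Tgfbr1, and under 1 for the other 5.

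Other genes known as let-7 targets give a scale for these values. Of 38 listed, 35 were compared at P3, with 31 higher and 4 lower by any amount (48.5% of all genes were higher). Past 2-fold, 4 were higher (1.31% of all genes were) and none lower (1.34% were), and the median was 0.37. Some entered a comparison through the higher library alone, as Prtg did at P3, so their direction there is fixed by the filter. Igf2bp1 (1.68), Hmga2 (1.46) and Igf2bp2 (1.37) led, so Igdcc3 at 1.73 and Tgfbr1 at 1.48 lay in the same range. At P1, 29 of 36 were higher (48.4% of all genes were), with a median of 0.27. More than 2-fold higher there were 2 (0.135% of all genes were), Hmga2 at 1.62 and Igf2bp1 at 1.21, both above Cdc34 at 0.91. In polysomes 25 of 35 were higher (62.8% of all genes were) and 3 more than 2-fold (0.952% were), with a median of 0.22 beside 0.06 over all genes. With passage in control 29 of 36 were lower (50.3% of all genes were), 10 more than 2-fold (8.14% were), with a median of -0.43. In the Lin28a culture 23 of 36 were lower (51% of all genes were), 9 more than 2-fold (4.8% were), with a median of -0.36.

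The genes nearest in pattern were sought for the 4 genes that spanned 1 or more, by the root mean square difference of log2 values centred within each assay, over 6 libraries and 12086 genes. For Tgfbr1 they were Klhdc8b (0.105) and Fbln1 (0.114), an extracellular matrix protein. For both Plagl2 and Arid3b they were Cbx2, a Polycomb protein (0.125 and 0.0738), and Slc25a13, a mitochondrial carrier (0.133 and 0.101). Cbx2 had 11.5 FPKM in Lin28a and 5.52 in control at P3, and 25.2 in Lin28a and 16.9 in control at P1. For Igdcc3 they were Zc3hav1l (0.219) and Dlk1 (0.254), a surface protein of the Notch ligand family, and so less close.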

How the data were processed

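The 9 genes and the gene lists were chosen with earlier results of these data known. Gene tables were deposited by the authors with 1 value per RefSeq gene, read here as FPKM for RNA-seq and as RPKM for polysome-seq from the values, since the headers name no unit. Bowtie 1.0.0, TopHat2 2.0.6, Cufflinks 2.1.1 and mm9 are named per the submitters' processing notes, without saying which step used which. Per the labels, RNA was poly(A)-selected, while a stranded total RNA kit is named. Small RNA values are raw counts per mature microRNA, deposited with hairpin counts, per the file headers. 0 columns of other samples were found.

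From these files CPM, log2 ratios (1 added, genes reaching 1 in a compared library, microRNAs of 10 CPM or more) and exact conditional binomial intervals at 95% were computed, with Python 3.11.15, numpy 2.4.6, pandas 2.3.3 and scipy 1.17.1, drawn with matplotlib 3.10.9. The scripts were tested on simulated data. No test was run between conditions, since each group held 1 library. All 9 genes matched the reference name table by RefSeq ID. The table is for GRCm38 and the files for mm9, so no gene coordinates are given. Besides the 9 genes, those named are the let-7 and cluster partner guides, paralogs, up to 3 genes per list with the largest P3 ratios, the nearest-pattern genes and Lin28a; a paralog is not reported here. Alternatives were another added value, no filter, upper quartile or median ratio scaling, scaling without let-7, hairpin counts, and sums without let-7c.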

Additional observations from a re-analysis of the deposited data

Results flagged for a closer look

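Some effects had opposite signs in the 2 cultures or at the 2 passages. With 1 library per group these differences were not tested. All values are log2 ratios.

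For P3 against P1, Cdc34 was at -0.17 in the Lin28a culture and 0.042 in control, and E2f5 at 0.046 and -0.39. Cdc34 in control and E2f5 in the Lin28a culture were within 0.1 of 0, and both changed sign under upper quartile scaling (-0.07 and -0.03). Most let-7 guides parted by far more. In the Lin28a culture and in control, let-7a was at -1.44 and 1.21, let-7d at -1.19 and 1.57, let-7e at -1.30 and 0.79, and let-7f at -1.51 and 0.98. Let-7g was at -1.56 and 0.39, let-7i at -1.69 and 1.08, and miR-98 at -1.77 and 1.13. Let-7b and let-7c did not part in sign, being higher at P3 in both cultures. Of the cluster partners, miR-99a was at 0.030 and -0.89.

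For Lin28a against control at P3 and at P1, let-7c was at -0.97 and 0.13 and let-7e at -2.005 and 0.087. The cluster partners parted the other way in CPM, with miR-125a at 0.12 and -0.018, miR-125b at 0.71 and -0.061, miR-99a at 0.51 and -0.41, miR-99b at 0.14 and -0.48, and miR-100 at 0.55 and -0.71. The lower let-7 share raises the CPM of other microRNAs in P3 Lin28a. At P3 miR-125a and miR-99b lay little above the median of all microRNAs (0.08), so their signs there are uncertain. The P1 sign of miR-125a is uncertain too, since the interval of its ratio reaches 1.00. All 9 genes kept 1 sign across both passages. Of these, Trim71 and Nr6a1 were under 1 FPKM, and the sign of Arid3b at P3 is fixed by the filter.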

How the results depend on the processing

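No paired analysis was possible because each group holds 1 library. Of 162 recomputed values for the 9 genes, 152 kept their direction and their side of 2-fold. Those recomputed without the filter are among the 152 by design. The filter decides only which genes are counted and cannot change a gene's own value. With 0.1 added in place of 1, Arid3b passed 2-fold at P3 (1.73) and in polysomes (1.02), Nr6a1 with passage in control (-1.04), and Trim71 for the polysome to RNA ratio (-1.15), while that ratio of Nr6a1 turned to -0.14, as it did to -0.06 with the median of all genes subtracted. Counts over all genes then became 43 higher and 46 lower at P1 (17 and 12 with 1 added), 343 and 333 at P3 (166 and 171), 249 and 61 in polysomes (117 and 15), 966 lower with passage in Lin28a (617) and 11 lower for the polysome to RNA ratio (4). For that ratio, leaving out the filter gave 118 higher and 32 lower (28 and 4), and subtracting the median of all genes gave 13 lower. Under upper quartile scaling 1 of the 9 genes in place of 2 was past 2-fold in polysomes, with Plagl2 at 0.98, and Nras there turned to -0.02, which leaves 7 of 9 higher. E2f5 with passage in Lin28a turned to -0.03 and Cdc34 in control to -0.07. The let-7 sum kept its direction in every alternative: under median ratio scaling, scaling without let-7, hairpin counts and the sum without let-7c the Lin28a to control ratio was 0.224, 0.213, 0.207 and 0.125 at P3 and 0.768, 0.808, 0.785 and 0.725 at P1, and the P3 to P1 ratio was 0.669, 0.647, 0.582 and 0.372 in Lin28a and 2.29, 2.45, 2.21 and 2.15 in control. Among single guides, let-7e at P1 turned to 0.998 under median ratio scaling (1.06 by CPM), and the cause was not tested. Genes under 1 FPKM, Trim71 and Nr6a1, are limited by depth, which is unknown.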
